A study of Danio rerio with 18 samples.

Results

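Ventricles of adult zebrafish with a conditional deletion of tcf21 (cKO) were compared 3 days after sham surgery with cKO ventricles that had no surgery. The 6 libraries, 3 in each group, were chosen by genotype, drug treatment and time point in the sample labels, out of 18 in the series. cKO sham hearts were exposed without injury and collected 3 days later. cKO uninjured hearts were collected on the day of surgery, 12 days after the first drug bath, so that surgery cannot be told apart from 3 more days after the drug. All these fish carried the floxed allele tcf21vln18/vln18, the inducible recombinase Tg(ubbR:CreERT2*)vln2 and the reporter TgBAC(tcf21:DsRed2)pd37, and both cKO groups had 3 baths of 24 h in 5 µM 4-Hydroxytamoxifen, the ligand that lets the recombinase enter the nucleus. The ubiquitin promoter of the recombinase does not restrict the deletion to the epicardium, the epicardial reporter is present in every group, and each library pooled 2 to 3 ventricles. Control sham and control uninjured ventricles, 3 libraries each, carry the same alleles and are labelled as receiving no 4-Hydroxytamoxifen. What the controls were bathed in, the age of the fish beyond adult, and the time of day of collection are not given in the labels.

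Tcf21 is a basic helix-loop-helix transcription factor of the epicardium, the mesothelial layer that covers the heart. Epicardial cells can give rise to fibroblasts and mural cells, secrete matrix and growth factors, and are known to switch on wt1b and aldh1a2 when the zebrafish heart is injured. Opening the body cavity without cryoinjury exposes this surface layer. The comparison describes how cKO ventricles 3 days after this surgery differed from cKO ventricles without surgery.

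The deleted gene checked the labels. In CPM (counts scaled to library size, adjusted by edgeR's TMM factors), tcf21 (chromosome 23, 31554269 to 31555696, minus strand, GRCz11) was at 0.673, 0.910 and 0.800 CPM in the cKO sham libraries and at 0.411, 0.820 and 0.891 CPM in the cKO uninjured libraries. The 2 cKO groups overlap (log2 fold change 0.17, SE 0.26, adjusted p = 0.906). In control sham ventricles it averaged 16.6 ± 1.97 CPM and in control uninjured ventricles 8.09 ± 2.28 CPM (SD, n = 3 each). Totals of the 6 cKO libraries ranged from 124919844 to 191085931 estimated counts, and the file headers put all 6 in lane 4 of the flow cell. The cKO uninjured replicate 3 stands apart: the first principal component, 34.2% of the variance of the 6 libraries, places it at 151 and the other 5 between -55.6 and 2.68. Its correlation with the other uninjured replicates, on log2 CPM across genes, was 0.928 and 0.934, against 0.954 between those 2 libraries, and every call below was also fitted without it.

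Of 20462 genes tested, 214 were called, meaning an adjusted p under 0.05 in edgeR's quasi-likelihood test with Benjamini-Hochberg adjustment. These were 1.05% of the genes tested. Higher levels in cKO sham ventricles accounted for 191 of the calls (0.933%) and lower levels for 23 (0.112%). The genes that rose included members of the provisional and fibrillar matrix, epicardial, fibroblast and matrix protease lists, and those that fell included clock genes and several cardiomyocyte genes. In all 214 genes the 3 sham libraries lay on one side of the 3 uninjured libraries, as they did in 15.3% of all genes tested, 9.59% on the higher side and 5.72% on the lower. The median log2 fold change of all genes was 0.02. Replicates weighed heavily on the count. It was 102 without uninjured replicate 2, and 116, 115 and 119 without sham replicates 1, 2 and 3. Without the outlying uninjured replicate 3 it was 150, and 116 of the 214 genes were called there. In the fit of the 6 libraries alone 29 genes were called, and of the lists described below provisional matrix had 4 calls, fibroblast genes 3, fibrillar collagens, collagen biosynthesis and epicardial markers 2 each, matrix proteases 1 and clock genes 0. Every one of the 6 fits that each left out a library called 75 of the 214 genes, and none of them called 25. Genes are described below as holding in all 6 fits that left out a library where that is so. Those fits kept the libraries of the other groups, so a gene that held in them can still lose its call with the 6 libraries alone. Of the 214 genes 28 were called there, among them postnb, col12a1a, lum and mdka, and 163 were called by limma-voom. Among those not called with the 6 alone were wt1b, prrx1a, prrx1b, mmp13b, zbtb16b, cldn3d, TNC, akap6, kcnh6a, anxa2a, sfrp1a and cgna. Among those that limma-voom did not call were prrx1b, mmp13b, htra1a, cthrc1a, wt1a, has1, mmp9, nfil3 and ankrd1a.

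Provisional matrix, the loose scaffold laid down in wounds, rose in 6 of its 19 members tested, none fell, and 13 did not pass the test. The median log2 fold change of the list was 0.76. Both fibronectins, glycoproteins that bind integrins and collagen, were among them. fn1b (chromosome 1, 5504128 to 5543065) was at 1710.4, 907 and 908 CPM in the cKO sham libraries, against 217, 216 and 190.5 CPM in the cKO uninjured libraries. All 3 sham libraries were high, replicate 1 most of all, and the groups did not overlap. For fn1b the log2 fold change was 2.5 with an SE of 0.29 (adjusted p = 0.000316). Its paralog fn1a (chromosome 9, 15362300 to 15424639) was at 356, 262 and 305 CPM after sham and at 73.9, 53.2 and 62.8 CPM in uninjured ventricles (log2 fold change 2.28, SE 0.25, adjusted p = 0.00027). Reads shared between close paralogs may be split by the counting, which was not tested.

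Periostin, a matricellular protein of activated fibroblasts and healing tissue, is encoded here by postnb (chromosome 15, 32710094 to 32741733). It was at 252, 230.3 and 199 CPM in cKO sham ventricles, against 36.3, 26.3 and 25.6 CPM in uninjured ones. The groups were far apart and tight within themselves (log2 fold change 2.95, SE 0.28, adjusted p = 6.65e-05). adamtsl7, an ADAMTS-like protein without a protease domain, was at 1.51, 2.32 and 1.95 CPM after sham and at 0.228, 0.229 and 0.250 CPM in uninjured ventricles. The log2 fold change was 3.03 with an SE of 0.40 (adjusted p = 0.000721). Like both fibronectins and postnb, it held in all 6 fits that left out a library. The collagen-binding glycoprotein sparc (log2 fold change 1.31, SE 0.27, adjusted p = 0.0256) and the hyaluronan synthase has1 (3.50, SE 0.78, adjusted p = 0.0417) rose as well. Both lost the call in the fits without uninjured replicate 2, uninjured replicate 3 or any sham replicate, where the adjusted p reached 0.103 for sparc and 0.139 for has1. has1 was scarce, at 1.60, 1.80 and 0.800 CPM after sham and at 0.228, 0.141 and 0 CPM in uninjured ventricles. The tenascin gene TNC, which bears an upper-case symbol and so did not match the list, is described with the control arm.

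Fibrillar and fibril-associated collagens rose in 4 of 17 members tested and fell in none, and their median log2 fold change was 1.23. col11a1b, a minor chain that seeds fibrils, was at 20.6, 17.5 and 23.9 CPM in cKO sham ventricles and at 0.220, 0.749 and 0.579 CPM in cKO uninjured ventricles. It was scarce in every uninjured library and well above that in every sham library (log2 fold change 5.33, SE 0.63, adjusted p = 0.000525). col12a1a, a collagen attached to fibril surfaces, was at 198, 227 and 153 CPM after sham and at 23.1, 17.5 and 11.2 CPM in uninjured ventricles (log2 fold change 3.48, SE 0.32, adjusted p = 6.65e-05). These 2 genes held in all 6 fits that left out a library. Chains of type I collagen, the main fibril of scars, had smaller fold changes. col1a1a was at 1326, 1032 and 1161 CPM after sham and at 584, 532 and 292 CPM in uninjured ventricles (log2 fold change 1.32, SE 0.28, adjusted p = 0.0319). The outlying uninjured replicate 3 was the lowest, and the groups did not overlap. col1a2 had a log2 fold change of 1.27 with an SE of 0.30 (adjusted p = 0.0495). The call of col1a1a was lost without any 1 library but uninjured replicate 1 (adjusted p up to 0.115) and that of col1a2 without any of the 6 (up to 0.195), so that the count was 2 without each sham replicate and without uninjured replicate 2. Not called were col1a1b (1.23, adjusted p = 0.0732) and col5a1 (1.31, adjusted p = 0.0517).

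Of 25 genes of collagen biosynthesis 2 rose and none fell, with a median of 0.32. serpinh1b, the collagen chaperone Hsp47, was at 23.8, 32.3 and 15.8 CPM in cKO sham ventricles, against 5.46, 5.11 and 4.93 CPM in uninjured ones. The log2 fold change was 2.21 with an SE of 0.36 (adjusted p = 0.00541). pcolcea, an enhancer of the protease that trims procollagen, rose by 1.13 (log2, SE 0.14, adjusted p = 0.000533). Both held in all 6 fits that left out a library. None of 20 basement membrane genes was called by edgeR and 1 by DESeq2, 5 had an unadjusted p under 0.05 and the median was 0.36. The laminin chain lama5, for one, was at 50.5, 32.9 and 41.9 CPM after sham and at 30.9, 26.3 and 24.8 CPM in uninjured ventricles (adjusted p = 0.119).

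**Figure D1:**
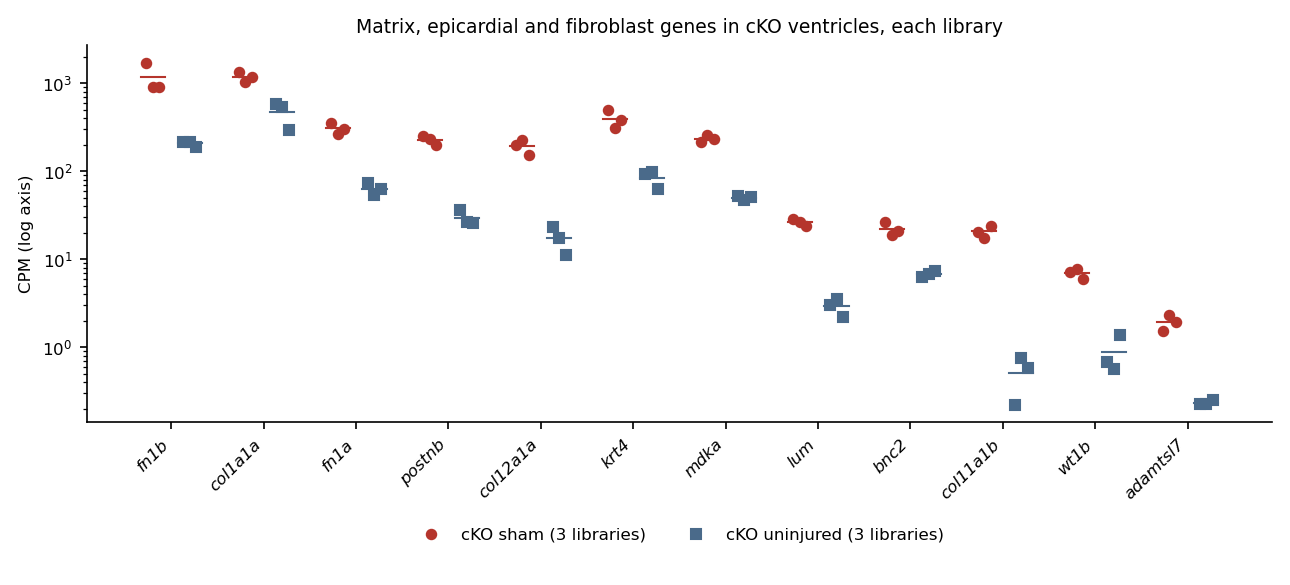
Level of 12 matrix, epicardial and fibroblast genes in each library, in CPM on a log axis. Red circles are the 3 cKO sham libraries and blue squares the 3 cKO uninjured libraries, with a line at each group's mean. The groups are separate for all 12 genes, from adamtsl7 at 1.51 to 2.32 CPM after sham up to fn1b at 907 to 1710.4 CPM.

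Matrix proteases and their inhibitors rose in 6 of 20 members tested, none fell, and their median log2 fold change was 0.88. mmp13b, a collagenase, was at 1.66, 1.32 and 1.00 CPM in cKO sham ventricles and at 0.0514, 0.0881 and 0.156 CPM in cKO uninjured ventricles. The gene was close to absent in the uninjured libraries and present in each sham library (log2 fold change 3.74, SE 0.59, adjusted p = 0.00362). htra1a, a secreted serine protease that cuts fibronectin and other matrix proteins, was at 2.58, 2.80 and 2.41 CPM after sham and at 0.338, 0.264 and 0.242 CPM in uninjured ventricles (log2 fold change 3.20, SE 0.51, adjusted p = 0.00362). Those 2 held in all 6 fits that left out a library. adam8a, a membrane metalloprotease of leukocytes and other migrating cells, was at 11.6, 11.9 and 6.09 CPM in cKO sham ventricles and at 1.63, 0.449 and 1.63 CPM in uninjured ones (2.99, SE 0.60, adjusted p = 0.0237). The gelatinase mmp9 (2.73, adjusted p = 0.0362), the inhibitor timp2b (1.69, adjusted p = 0.0401) and the membrane-bound collagenase mmp14a (0.95, adjusted p = 0.0362) rose as well. Like adam8a, none of them held in all 6 fits that left out a library. The list's count was 2 without sham replicate 2 or uninjured replicate 2, and 3 without sham replicate 1, uninjured replicate 1 or uninjured replicate 3. Largest adjusted p-values in those fits were 0.0862 for adam8a, 0.192 for mmp9, 0.192 for timp2b and 0.161 for mmp14a.

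Epicardial markers had 6 calls among 13 tested, all higher in cKO sham ventricles. Of the 13, 12 had an unadjusted p under 0.05, and all 13 had a log2 fold change above 0, with a median of 0.97. Over all genes tested 10.7% had such an unadjusted p. Summed over the list, the level was 4466, 4152 and 4766 CPM in cKO sham ventricles, against 2078, 2370.2 and 2987 CPM in uninjured ones. The keratin krt8, given below, is a large part of this sum, so the sum does not stand for the scarcer markers. In whole ventricles more epicardial cells and more RNA per epicardial cell cannot be told apart, and the same holds for every cell type below. The count was 3 without sham replicate 2, and 4 or 5 without each of the other libraries.

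wt1b, a zinc-finger transcription factor of the activated epicardium, was at 7.25, 7.64 and 5.96 CPM in cKO sham ventricles and at 0.683, 0.564 and 1.39 CPM in cKO uninjured ventricles. All sham libraries were several-fold above all uninjured libraries (log2 fold change 2.98, SE 0.44, adjusted p = 0.0018). krt4, a keratin of surface epithelia, was at 490.2, 306 and 379 CPM after sham and at 91.9, 96.9 and 62.9 CPM in uninjured ventricles (2.22, SE 0.25, adjusted p = 0.00027). bnc2, a zinc-finger factor of mesothelial cells, was at 26.7, 18.8 and 20.8 CPM after sham and at 6.28, 6.82 and 7.37 CPM in uninjured ventricles (1.70, SE 0.21, adjusted p = 0.00047). These 3 genes held in all 6 fits that left out a library. wt1a, the paralog of wt1b, rose with a log2 fold change of 2.28 (adjusted p = 0.0354), and its call was lost in every such fit but the one without uninjured replicate 2 (up to 0.0991). The guidance ligand sema3d (1.1, adjusted p = 0.0124) lost it without sham replicate 2 or uninjured replicate 3 (up to 0.0589). krt8, a keratin of simple epithelia, was at 1785, 1895 and 1902 CPM after sham and at 774, 958 and 1360.5 CPM in uninjured ventricles, and its call (0.85, adjusted p = 0.0332) held only without uninjured replicate 3 (otherwise up to 0.142).

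Other defining epicardial genes did not pass the test in cKO ventricles. aldh1a2, the enzyme that makes retinoic acid, was at 156, 116 and 88.2 CPM after sham and at 68.2, 76.8 and 77.0 CPM in uninjured ventricles (log2 fold change 0.70, SE 0.22, adjusted p = 0.192). The sham libraries were all higher, replicate 3 by little. The T-box factor tbx18 (0.83, adjusted p = 0.324) and the surface sialomucin podxl (0.52, adjusted p = 0.161) were also above uninjured levels in every sham library without being called.

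Fibroblast genes were called higher in 7 of 17 members tested and lower in none, with a median log2 fold change of 1.25. That median is the same with prrx1b set to the bound that 3 counts over the uninjured group allow. Of the 17, 16 had a log2 fold change above 0, and the lowest was -0.78. Without overlap, 12 were higher and 1 lower, against 9.59% and 5.72% of all genes tested. The summed level of the list was 721, 724 and 666 CPM in cKO sham ventricles and 324, 355 and 319 CPM in uninjured ones. mdka, the secreted growth factor midkine, was at 215, 258 and 229 CPM in cKO sham ventricles and at 52.9, 46.6 and 51.0 CPM in uninjured ventricles. Replicates of each group lay close together and the groups far apart (log2 fold change 2.22, SE 0.21, adjusted p = 6.65e-05). lum, the collagen-binding proteoglycan lumican, was at 28.5, 26.3 and 23.8 CPM after sham and at 3.02, 3.49 and 2.23 CPM in uninjured ventricles (3.17, SE 0.43, adjusted p = 0.00123).

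The mesenchymal homeobox gene prrx1b was at 0.431, 0.646 and 0.408 CPM in cKO sham ventricles and was listed at 0 in all 3 uninjured libraries (adjusted p = 0.00123). Its paralog prrx1a was at 5.68, 4.19 and 7.11 CPM after sham and at 2.00, 1.08 and 0.579 CPM in uninjured ventricles (log2 fold change 2.21, SE 0.37, adjusted p = 0.00541). cxcl12a, a chemokine of the epicardium and fibroblasts, was at 33.8, 24.8 and 19.4 CPM after sham and at 9.06, 7.65 and 10.1 CPM in uninjured ventricles (1.54, SE 0.24, adjusted p = 0.00362). With the secreted chaperone clu (1.25, adjusted p = 0.000597), all of these held in every fit that left out a library, while the bHLH factor twist1a (1.27, adjusted p = 0.0332) held only without uninjured replicate 3 (otherwise up to 0.141). Other fibroblast markers were not called: dcn, decorin, had a log2 fold change of 0.63 (adjusted p = 0.0729), mfap5 of the microfibrils one of 0.81 (adjusted p = 0.0514), and the receptor pdgfra one of 0.06 (adjusted p = 0.989). pdgfra was at 30.5, 42.3 and 38.5 CPM after sham and at 18.5, 40.6 and 47.6 CPM in uninjured ventricles, so its groups overlapped.

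**Figure D2:**
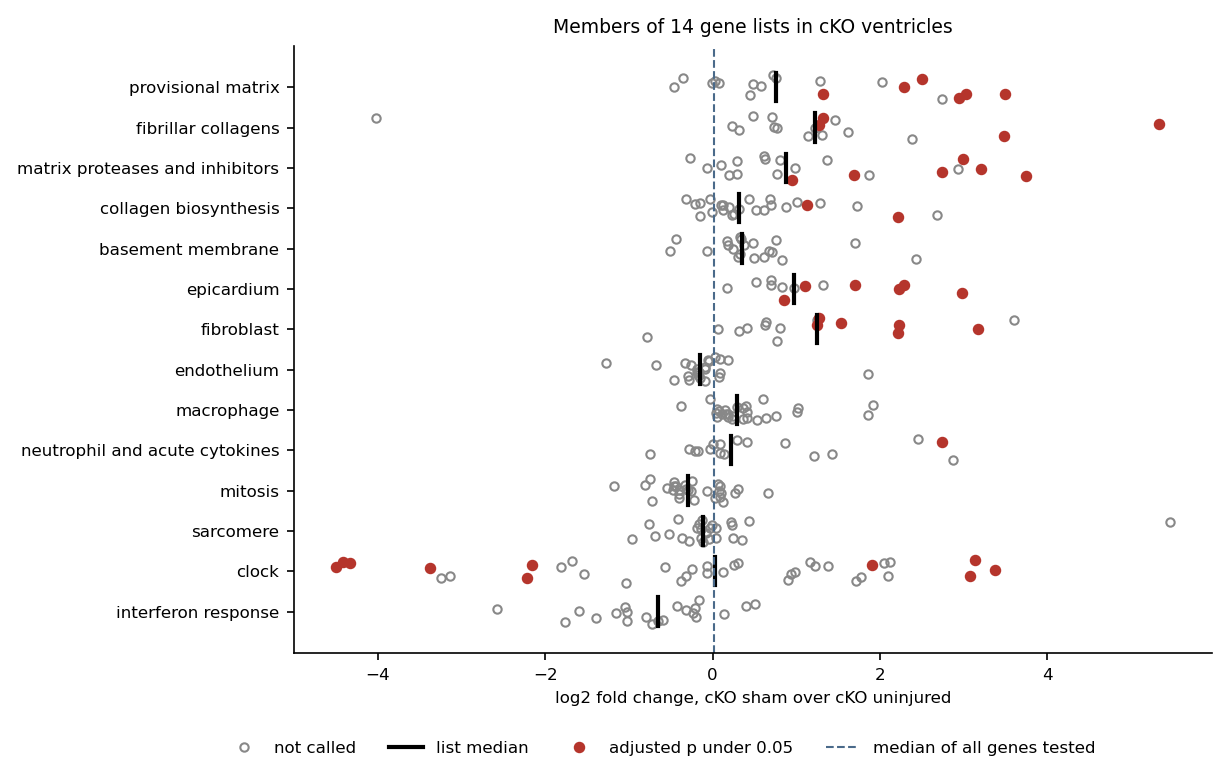
Log2 fold change of cKO sham over cKO uninjured for the tested members of 14 gene lists. Each point is a gene, filled red if called, a black bar is the list median and the dashed line the median of all genes at 0.02. Genes at 0 in all libraries of a group, among them prrx1b, are not drawn. The epicardial and fibroblast medians stand at 0.97 and 1.25 with red points on the right only, and the clock list has red points on both sides.

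Clock genes changed in both directions. Of 36 tested, 4 rose and 6 fell, and 26 had an unadjusted p under 0.05. nr1d1, the repressor Rev-erb alpha, was at 42.6, 79.3 and 84.9 CPM in cKO sham ventricles and at 14.4, 3.50 and 6.68 CPM in cKO uninjured ventricles (log2 fold change 3.07, SE 0.44, adjusted p = 0.0018). per1a, a period repressor, was at 34.4, 54.1 and 66.8 CPM after sham and at 12.6, 2.79 and 2.34 CPM in uninjured ventricles (3.13, SE 0.54, adjusted p = 0.00859). For both, and for the CLOCK-BMAL repressor ciarta (3.37, SE 0.58, adjusted p = 0.0088), the sham libraries were all high, sham replicate 1 being the lowest of them and uninjured replicate 1 the highest of its group. These 3 held in all 6 fits that left out a library, but not with the 6 cKO libraries alone, where the adjusted p was 0.108 for nr1d1, 0.208 for per1a and 0.221 for ciarta. With the 9 cKO libraries alone nr1d1 kept its call, per1a and ciarta lost it, and the clock list had 2 increases and 3 decreases. cry2, a cryptochrome, was called as well (1.9, adjusted p = 0.03).

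The 6 genes that fell encode nuclear receptors, bZIP repressors and BMAL activators. rorcb, a retinoid-related orphan receptor, was at 7.95, 5.04 and 2.91 CPM in cKO sham ventricles and at 37.6, 89.1 and 234 CPM in uninjured ventricles. The uninjured libraries differed from each other more than the sham libraries did, and replicate 3 was the highest (log2 fold change -4.50, SE 0.89, adjusted p = 0.0217). nfil3-5, a bZIP repressor, was at 10.4, 5.41 and 3.51 CPM after sham and at 33.0, 124 and 257 CPM in uninjured ventricles (-4.42, SE 0.80, adjusted p = 0.0124). The activator bmal1b was at 5.28, 2.33 and 1.46 CPM after sham and at 7.13, 15.4 and 19.8 CPM in uninjured ventricles (-2.22, SE 0.47, adjusted p = 0.03). nr1d4b of the Rev-erb family (-4.33, adjusted p = 0.0407), bmal2 (-3.38, adjusted p = 0.0392) and nfil3 (-2.15, adjusted p = 0.0332) fell too.

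Without uninjured replicate 3 or without sham replicate 3 none of these 6 decreases was called. Without sham replicate 2, uninjured replicate 2 and sham replicate 1, 1, 2 and 4 of them were, while without uninjured replicate 1 the list had 10 increases and 8 decreases. The largest adjusted p-values in those fits were 0.115 for rorcb, 0.0803 for nfil3-5, 0.133 for bmal1b, 0.174 for nr1d4b, 0.174 for bmal2 and 0.135 for nfil3, and cry2 reached 0.125. Outside the list, the cryptochrome-family gene cry3b (chromosome 22, 786556 to 809282) fell in a more even way. It was at 61.3, 57.1 and 52.9 CPM in cKO sham ventricles and at 181, 188 and 294 CPM in uninjured ones (-1.95, SE 0.23, adjusted p = 0.000346), and held in all 6 fits that left out a library. per3 (2.12, adjusted p = 0.0586) and bmal1a (-1.68, adjusted p = 0.0728) lay in the direction of their paralogs without being called. Fish were kept in 14 h of light and 10 h of dark, and the part that the hour of collection had in these values was not tested.

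**Figure D3:**
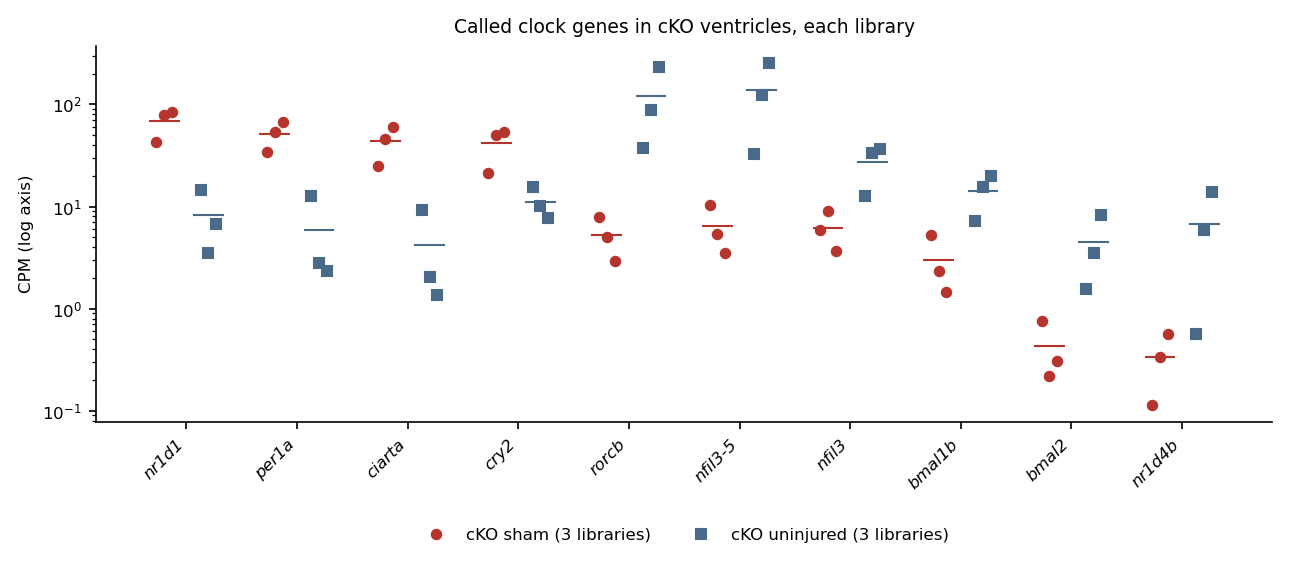
Level of the 10 called clock genes in each library, in CPM on a log axis, with cKO sham as red circles, cKO uninjured as blue squares and a line at each mean. In the 4 genes on the left the sham libraries are higher and in the 6 on the right lower, and the uninjured libraries of rorcb run from 37.6 to 234 CPM.

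Few cardiomyocyte genes passed the test. None of 25 sarcomere genes was called by edgeR, 1 was by limma-voom, 4 had an unadjusted p under 0.05, and their median was -0.12. The thin filament gene tnnt2a, for one, was at 3219.8, 3573 and 3529 CPM in cKO sham ventricles and at 3775, 3751 and 3862 CPM in uninjured ventricles (log2 fold change -0.14, adjusted p = 0.866). The natriuretic peptide nppa was not called either (-0.42, adjusted p = 0.62). Single genes of heart muscle did fall. akap6, which anchors protein kinase A at the nuclear envelope of muscle cells, was at 4.68, 10.3 and 5.38 CPM after sham and at 34.2, 63.4 and 99.1 CPM in uninjured ventricles. Its groups were well separated (-3.27, SE 0.56, adjusted p = 0.00822), but the call was lost without sham replicate 1 or 3 (up to 0.0593).

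trim55a, a ubiquitin ligase of the sarcomere, was at 13.7, 5.49 and 4.40 CPM in cKO sham ventricles and at 24.6, 42.8 and 57.7 CPM in uninjured ventricles (log2 fold change -2.41, SE 0.52, adjusted p = 0.0346). kcnh6a, the potassium channel that repolarizes the zebrafish ventricle, was at 161, 137 and 178 CPM after sham and at 799, 557 and 299.6 CPM in uninjured ventricles (-1.80, SE 0.36, adjusted p = 0.0237), and was the sole call among 15 genes of calcium handling and excitation. zbtb16b, a zinc-finger transcription factor induced by glucocorticoids in mammals, was at 4.59, 9.93 and 12.3 CPM after sham and at 50.9, 45.8 and 49.2 CPM in uninjured ventricles (-2.44, SE 0.37, adjusted p = 0.00301). It held in all 6 fits that left out a library and was the sole call among 17 genes of the glucocorticoid list. The call of trim55a was lost without sham replicates 2 or 3 or uninjured replicates 2 or 3 (up to 0.158), and that of kcnh6a without any 1 library but uninjured replicate 3 (up to 0.106). Uninjured levels of akap6 and trim55a climbed from replicate 1 to replicate 3, as those of rorcb and nfil3-5 did, while those of kcnh6a fell. The part that the hour of collection had in these values was not tested.

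The calcineurin regulator rcan3 (-1.50, adjusted p = 0.038), the nucleotide-synthesis enzyme impdh1b (-1.30, adjusted p = 0.043) and the RNA-binding protein fus (-1.26, adjusted p = 0.0122) also fell. rcan3 was called in none of the fits that left out a library (up to 0.167), impdh1b only in that without uninjured replicate 1 (otherwise up to 0.183), and fus not without sham replicate 2, sham replicate 3 or uninjured replicate 3 (up to 0.0703). In the other direction, vim, the intermediate filament vimentin of mesenchymal cells, was at 80.2, 43.9 and 63.3 CPM in cKO sham ventricles and at 16.7, 22.7 and 19.6 CPM in uninjured ones (1.67, SE 0.29, adjusted p = 0.00801). It held in all 6 such fits. With ankrd1a (3.24, adjusted p = 0.0419) it made up the 2 calls among 14 genes of cardiomyocyte stress. ankrd1a was scarce, at 1.27, 0.964 and 0.604 CPM after sham and at 0.117, 0.185 and 0 CPM in uninjured ventricles. It was called in none of the fits that left out a library (up to 0.137).

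Further large increases stood outside the lists. myof, myoferlin, a membrane-fusion protein, was at 18.1, 9.35 and 9.43 CPM in cKO sham ventricles and at 1.91, 1.87 and 1.31 CPM in uninjured ventricles (log2 fold change 2.86, SE 0.32, adjusted p = 0.00027). cldn3d, a tight-junction claudin, was at 15.2, 8.57 and 4.21 CPM after sham and at 1.2, 1.38 and 1.72 CPM in uninjured ventricles (2.70, SE 0.38, adjusted p = 0.0012). Both held in all 6 fits that left out a library. In the retinoic acid list 2 of 16 genes rose, the binding protein crabp2b (2.63, adjusted p = 0.0438) and the retinal reductase dhrs3a (1.12, adjusted p = 0.0281). crabp2b was called in none of the fits without a library (up to 0.139) and dhrs3a in those without sham replicate 2 or 3 only (otherwise up to 0.143).

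Immune, vascular and cell-cycle lists held few calls. Macrophage genes had none among 27 by edgeR, DESeq2 or limma-voom, 5 with an unadjusted p under 0.05, all higher, and a median of 0.29. Of the 27, 25 had a log2 fold change above 0, against 51.9% of all genes tested. The summed level of the macrophage list was 1141, 1199 and 1525 CPM in cKO sham ventricles and 1088, 822 and 1524 CPM in uninjured ones, so the groups overlapped. The macrophage receptor csf1ra had a log2 fold change of 0.76 (adjusted p = 0.422). Among 18 neutrophil and acute cytokine genes the one call was mmp9, which is also in the protease list, and the neutrophil receptor csf3r was at 3.83, 5.80 and 8.77 CPM after sham and at 1.52, 1.67 and 3.63 CPM in uninjured ventricles (1.43, adjusted p = 0.328). The markers mpx and mpeg1.1 matched no gene and were not analysed here. Interferon-response genes leaned the other way, with a median of -0.66 over 21 genes and 7 of them lower without overlap, against 5.72% of all genes tested, but edgeR called none, DESeq2 2 and limma-voom 1, and 5 had an unadjusted p under 0.05. Of these, the antiviral GTPase mxa was at 0.643, 0.905 and 0.808 CPM after sham and at 4.40, 2.25 and 1.38 CPM in uninjured ventricles (-1.77, adjusted p = 0.156).

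None of 23 endothelial genes was called by edgeR, DESeq2 or limma-voom, none had an unadjusted p under 0.05, and their median was -0.15, where the junction gene cdh5 had a log2 fold change of -0.15 (adjusted p = 0.763). Of 15 mural genes 1 rose, tagln, a smooth-muscle actin-binding protein, at 30.4, 41.2 and 44.2 CPM in cKO sham ventricles and 15.9, 12.2 and 10.4 CPM in uninjured ones (1.59, adjusted p = 0.017). It was not called without sham replicate 2 or 3 or uninjured replicate 2 or 3 (up to 0.085). Mitosis genes had no call among 29 by any of those tools, none with an unadjusted p under 0.05, and a median of -0.30. Their summed level was 90.6, 122 and 97.6 CPM after sham and 229, 77.9 and 63.8 CPM in uninjured ventricles, where replicate 1 was the highest of all 6. The topoisomerase top2a was at 8.35, 12.1 and 8.14 CPM after sham and at 26.2, 8.19 and 4.88 CPM in uninjured ventricles (-0.46, adjusted p = 0.799), and the mitotic cyclin ccnb1 had a log2 fold change of -0.81 (adjusted p = 0.478). DNA replication genes likewise had no call among 27, none with an unadjusted p under 0.05, and a median of 0.35. In simulated libraries of the same design a log2 change of 2 was called in 74.1% of 112 genes and a log2 change of 1 in 23.9% of 88. Changes of 1 were thus mostly not called there. The changed genes were drawn above a minimum count, and each gene had the same spread in all groups. The real groups differ in spread, so these shares cannot be carried over to this comparison or to scarce genes.

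Smaller groups gave single calls or none. Among 35 growth factors and receptors 2 rose, mdka and the chemokine cxcl12b (log2 fold change 1.24, adjusted p = 0.0342, with uninjured replicate 1 or sham replicate 3 left out the sole fits to keep it, otherwise up to 0.158). Among 18 heat-shock genes the factor hsf2 rose (1.41, adjusted p = 0.0124, lost without sham replicate 3, uninjured replicate 2 or uninjured replicate 3, up to 0.0799). In all, 16 of 41 lists had a call and 25 had none. Of those 25, nuclear oxidative phosphorylation (92 genes, median -0.13), glycolysis (27, -0.17), fatty acid oxidation (24, -0.32), proteasome (46, -0.12), AP-1 and immediate-early genes (25, 0.29), cardiac transcription factors (13, 0.03), antigen presentation (12, 0.07), red blood cells (9, 0.61), thrombocytes (9, -0.01) and atrium (5, -0.07) had none by edgeR, DESeq2 or limma-voom. Cytosolic ribosomal proteins (79, 0.08), endoplasmic reticulum folding and export (28, -0.05), lymphocytes (21, 0.53), nerve and glia (13, 0.66), TGF-beta and activin (16, 0.16) and BMP and Id genes (17, -0.10) had 1 each by DESeq2, and the TGF-beta and BMP lists 1 each by limma-voom. Their counts at an unadjusted p under 0.05 were 2 of the oxidative phosphorylation genes, 2 of fatty acid oxidation, 2 of the ribosomal proteins, 3 of endoplasmic reticulum folding, 2 of the lymphocyte genes, 1 of nerve and glia, 6 of TGF-beta and activin, 3 of BMP and Id and 0 of the rest.

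Markers of neighbouring tissue were measured beside these groups. Of 8 liver genes tested, tfa, transferrin, rose, at 301, 365 and 315 CPM in cKO sham ventricles and 63.3, 62.5 and 129.6 CPM in uninjured ones (log2 fold change 1.94, SE 0.38, adjusted p = 0.0187), with the call lost without sham replicate 2 or 3 or uninjured replicate 1 or 2 (up to 0.1). The other 7 liver genes together were at 1.92, 2.86 and 2.66 CPM after sham and at 1.81, 1.56 and 1.84 CPM in uninjured ventricles. Skeletal muscle had no call among 10 by edgeR and 1 by DESeq2, with an unadjusted p under 0.05 for 2. Its summed level was lower in every sham library, at 4022, 4120 and 4216 CPM, against 4487, 4999 and 4534 CPM in uninjured ventricles. Of the 10 members 6 had a log2 fold change above 0, so the lower sum does not describe the list as a whole. Sham replicate 1 carried more of some scarce genes. The troponin tnnt3b was at 4.79, 0.550 and 0.323 CPM after sham and at 0.242, 0.282 and 0.180 CPM in uninjured ventricles. actc1b, a member of the sarcomere list, was at 9.85, 0.129 and 0.0340 CPM, against 0.11, 0.115 and 0 CPM. The median log2 fold change was 1.89 in the skeletal muscle list, where tnnt3a, myhz2 and myhz1.1 were listed at 0 in every uninjured library, and 1.94 in the bulbus list. Bulbus genes had no call among 5 by either tool and none with an unadjusted p under 0.05, while 3 of the 5 were higher without overlap, against 9.59% of all genes tested. The troponin tnni4a, nearly all of the bulbus list's summed level, is also a member of the sarcomere list. It was at 1664, 1795 and 1758.5 CPM after sham and at 2037, 1904 and 1319 CPM in uninjured ventricles, which overlap. Its level therefore does not stand for the other bulbus genes. Of these, elnb, an elastin, was at 2.69, 4.12 and 1.23 CPM after sham and at 0.411, 0.705 and 0 CPM in uninjured ventricles. Haemoglobin genes took 0.189%, 0.554% and 0.420% of counts after sham and 0.356%, 0.261% and 0.134% in uninjured ventricles, which overlap (exact two-sided permutation p = 0.4, smallest possible 0.1). The part of these tissues in the gene groups above was not tested, beyond the fits without sham replicate 1.

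Control ventricles after sham were compared with their own uninjured libraries, to ask which of these changes differed between the arms. In control ventricles 1562 genes were called (7.63%). Of the 214 genes called in cKO ventricles 164 were called there too, which is 76.6% of the cKO calls and 10.5% of the control calls. Of the 214, 209 had the same sign, and the share of all genes with the same sign was not computed. Over all genes tested the log2 fold changes of the 2 arms had a Pearson correlation of 0.236. Scarce genes and genes at 0 in all libraries of a group were included. Their part in this value was not tested. The difference of the 2 responses, cKO minus control, was called for 5 of 20462 genes (0.0244%), while 1883 (9.2%) had an unadjusted p under 0.05. Of the 6 control libraries 5 were in lane 2 and all cKO libraries in lane 4, so arm and lane cannot be told apart in uninjured ventricles.

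One of the 5 called differences was in TNC (ENSDARG00000021948, chromosome 5, 28560847 to 28679135), 1 of 2 genes with that symbol, for tenascin C, a matricellular protein of wounds and embryonic tissue. It was at 3.51, 4.51 and 5.67 CPM in cKO sham ventricles and at 1.09, 0.635 and 0.469 CPM in cKO uninjured ventricles (log2 fold change 2.64, SE 0.41, adjusted p = 0.00346), a call that held in all 6 fits without 1 library. In control ventricles it was at 74.2, 75.1 and 60.5 CPM after sham and at 0.305, 1.02 and 0.740 CPM uninjured (log2 fold change 6.65, SE 0.48, adjusted p = 1.25e-06). Uninjured levels overlapped between the arms, and the 3 cKO sham libraries stood far below the 3 control sham libraries. The difference of the responses was -4.01 (SE 0.57, adjusted p = 0.013). It was lost without control sham replicate 1, cKO sham replicate 2 or cKO sham replicate 3 (up to 0.0576), and with the 12 sham and uninjured libraries alone (adjusted p = 0.208).

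Some matrix genes that rose in both arms had smaller estimates in cKO ventricles, without a difference called by edgeR. For fn1a the log2 fold change of 2.28 in cKO ventricles stood beside 4.22 (SE 0.28) in control ventricles, a difference of -1.94 (SE 0.35, adjusted p = 0.0595). Its uninjured levels differed between the arms without overlap, at 73.9, 53.2 and 62.8 CPM in cKO and 22.8, 30.1 and 27.5 CPM in control ventricles. After sham it was at 356, 262 and 305 CPM in cKO and 600, 352 and 548 CPM in control ventricles, which overlap. The higher uninjured level in cKO ventricles therefore enters the difference for fn1a. adamtsl7 had 3.03 in cKO and 5.52 in control ventricles (difference -2.49, SE 0.54, adjusted p = 0.12), and col12a1a 3.48 and 4.64 (difference -1.17, SE 0.41, adjusted p = 0.402). fn1b had the larger estimate in cKO ventricles, at 2.5 against 1.61 in control ventricles (difference 0.88, SE 0.39, adjusted p = 0.509). Of 19 provisional matrix members 13 had a difference below 0, and of 17 fibrillar collagens 14. Over all genes tested the median difference was -0.00065, so about as many genes lay below 0 as above it. No member of either list had a called difference by edgeR. DESeq2 called 2 differences in the provisional matrix list and 1 in the fibrillar collagens, and limma-voom 0 in each. For others the estimates were close, with postnb at 2.95 in cKO and 3.56 in control ventricles (difference -0.61, SE 0.37) and krt4 at 2.22 and 2.36 (difference -0.14, SE 0.34). nr1d1 and per1a leaned the other way, with differences of 1.76 (SE 0.58, adjusted p = 0.361) and 2.05 (SE 0.71, adjusted p = 0.4). Falls of rorcb (-4.50 in cKO, -4.42 in control ventricles) and akap6 (-3.27 and -3.55) were near equal, with differences of -0.08 (SE 1.09) and 0.28 (SE 0.72).

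None of the 41 gene lists had a member with a called difference by edgeR or limma-voom. DESeq2, which called 247 differences in all, called 14 in the mitosis list and at most 2 in any other list. In the mitosis list the median log2 fold change was -0.30 in cKO ventricles and 1.79 in control ventricles, where 22 of 29 members were called higher. All 29 differences were below 0 and 24 had an unadjusted p under 0.05, but the smallest adjusted p was 0.055. The list summed to 158, 167 and 141 CPM in control sham ventricles and to 62.3, 51.3 and 40.0 CPM in control uninjured ones, which did not overlap. In the cKO arm uninjured replicate 1 was the highest library, and top2a had a log2 fold change of 0.55 without it (adjusted p = 0.504). The list summed to 229, 77.9 and 63.8 CPM in cKO uninjured ventricles, above every control uninjured library. The uninjured level therefore enters the differences of this list, and arm and lane cannot be told apart there. In cKO sham ventricles the list summed to 90.6, 122 and 97.6 CPM, below every control sham library.

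**Figure D4:**
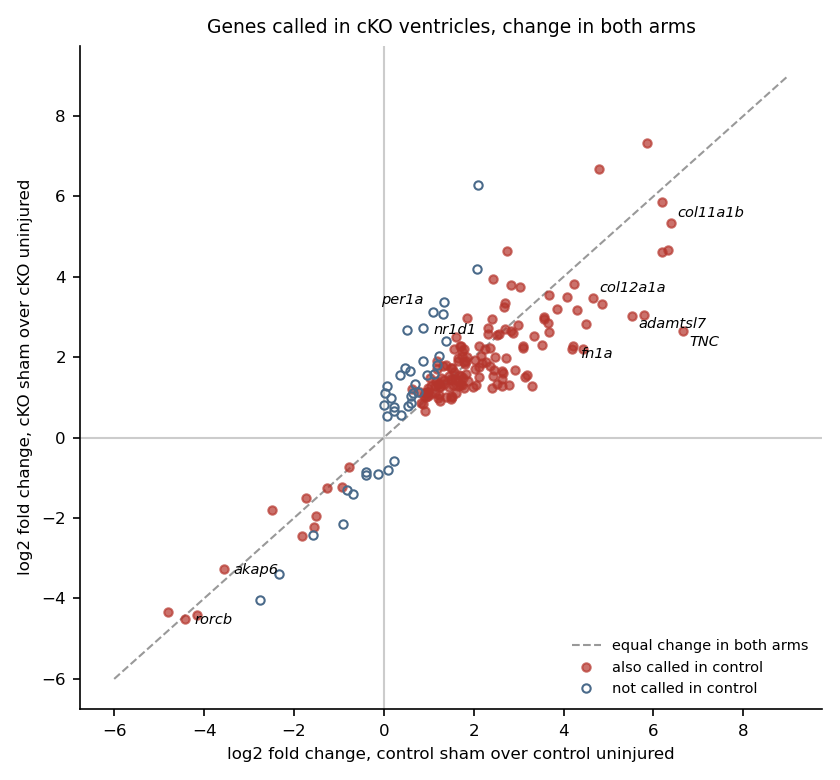
Log2 fold change of sham over uninjured for the genes called in cKO ventricles, in the cKO arm (vertical axis) and in the control arm (horizontal axis). Filled red points are also called in control ventricles, open blue points are not, the dashed line marks equal change, and 194 of the 214 genes are drawn, the other 20 being at 0 in all libraries of a group. TNC lies farthest below the line among those labelled, at 2.64 against 6.65, while rorcb and akap6 lie close to it.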

How the data were processed

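Estimated counts for genes of the Ensembl 109 annotation of GRCz11 were deposited as whole numbers with no depth scaling by the authors. StringTie 2.1.1 quantified each library, per the file headers, and the submitters' processing notes also name FastQC 0.11.9, Trim Galore 0.6.10 and HISAT2 2.1.0. In every library, coverage times length divided by 75 gave the deposited count of all 25107 genes after rounding, so how many reads make up a count cannot be given, and no counting interval or lower bound of a gene's fold is printed. Use of strand is not given in the sources used here, so overlapping and closely related genes are uncertain.

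Samples were grouped by genotype, treatment and time in the labels. Members and lists were chosen with earlier results of these data known. Symbols came from the supplied gene names (12674) and RefSeq assembly GRCz12tu (10825). Of 1013 list entries, 946 matched. Genes were filtered with filterByExpr by group (20462 kept), scaled by TMM and tested with edgeR 4.0.16 (robust quasi-likelihood, two-sided, R 4.3.3) in 1 model of the 18 libraries, with group means as its terms. P-values were adjusted by Benjamini and Hochberg over all genes, with calls under 0.05. SE was derived from the log2 fold change and the F statistic. P-values measure the spread between libraries that are pools of 2 to 3 ventricles, estimated over all 18 libraries. It is not the spread of the cKO sham and uninjured libraries alone. The common biological coefficient of variation, a measure of that spread, was 0.575 in cKO uninjured and 0.597 in control uninjured libraries. In the other groups it ran from 0.272 (cKO cryoinjury) to 0.405 (cKO sham). With the cKO sham and uninjured libraries alone, 184 of 212 called genes lost the call. The cause of that loss was not tested.

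Genes named are tcf21, the 12 largest called increases and decreases with at least 5 CPM on average, a lower-case symbol that is not a clone or locus name, and no overlap, up to 4 called members of each list by size of change, defining markers of other cell types, and the genes called for the difference between arms. Other genes are chosen after their values were seen, including the further called members of lists and the uncalled ones given for contrast. Alternatives were DESeq2 1.42.0, limma 3.58.1 (voom with sample weights), DESeq2 size factors, no filter, fewer libraries, a replicate block, lane as a covariate and each replicate left out. In simulated data 5 unchanged genes of 19924 were called for cKO sham against uninjured.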

Additional observations from a re-analysis of the deposited data

Results flagged for a closer look

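Of all genes tested, 5 had a called difference between the sham responses of cKO and control ventricles. The test was edgeR's quasi-likelihood fit with Benjamini-Hochberg adjustment. TNC rose in both arms and less in cKO ventricles (difference -4.01, SE 0.57, adjusted p = 0.0130). Its uninjured levels overlapped between the arms. Those of prr11, ftr25, zmp:0000000608 and cyp2k8 did not, so the uninjured level enters their differences. Arm and lane cannot be told apart in uninjured ventricles.

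prr11, a gene needed for cell-cycle progression in human cells, was at 0.908, 1.07 and 0.996 CPM in cKO sham ventricles and at 1.89, 1.11 and 1.06 CPM in cKO uninjured ventricles, and it did not pass the test there (log2 fold change -0.45, adjusted p = 0.648). In control ventricles it was at 1.88, 2.42 and 2.12 CPM after sham and at 0.229, 0.488 and 0.373 CPM uninjured (2.55, SE 0.31, adjusted p = 0.000141). The difference was -2.99 (SE 0.43, adjusted p = 0.0130).

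The other 3 are scarce, and each is listed at 0 in all 3 libraries of a group, so no fold is given. ftr25, of the fish finTRIM family, was at 0.182, 0.269 and 0.349 CPM in cKO sham ventricles and at 0 in cKO uninjured ones, against 0.00575, 0 and 0.0190 CPM in control sham ventricles and 0.526, 0.695 and 0.380 CPM in control uninjured ones (adjusted p of the difference = 0.0130). zmp:0000000608 was at 0.257, 0.447 and 0.425 CPM in cKO sham ventricles and at 0.198, 0.132 and 0.399 CPM in cKO uninjured ones, against 0.690, 0.544 and 0.411 CPM in control sham ventricles and 0 in control uninjured ones (adjusted p = 0.0130). cyp2k8, a cytochrome P450, was at 0.242, 0.711 and 0.451 CPM in cKO sham ventricles and at 0 in cKO uninjured ones, against 0.196, 0.120 and 0.354 CPM in control sham ventricles and 0.136, 0.263 and 0.340 CPM in control uninjured ones (adjusted p = 0.0295).

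None of the 5 differences was called without control sham replicate 1 or without cKO sham replicate 3, by limma-voom, or with the 12 libraries alone. Leaving out 1 library gave adjusted p-values of up to 0.0576 for TNC, 0.0570 for zmp:0000000608, 0.0592 for prr11, 0.0570 for ftr25 and 0.137 for cyp2k8.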

How the results depend on the processing

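DESeq2 called 589 genes (457 higher, 132 lower), which include all 214, and limma-voom 330 (259 higher, 71 lower), which include 163. With the 6 cKO libraries alone 29 were called, 28 higher and 1 lower. Leaving out 1 library gave 102 to 253 calls, 94 to 218 higher and 3 to 35 lower. DESeq2 size factors gave 205, no filter 202, the 9 cKO libraries 196 and lane as a covariate 182. No called gene changed direction in the fits that tested it, and with the 6 cKO libraries alone 212 of the 214 were tested. For the difference between arms DESeq2 called 247, limma-voom 0 and the 12 libraries alone 0, where 1826 and 1265 genes had an unadjusted p under 0.05, and leaving out 1 library gave 0 to 65. The causes were not tested.

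Sham and uninjured libraries of the same number did not deviate together (correlations 0.08, -0.02 and 0.01 across genes), so the numbers were not taken to pair them. With the replicate block 269 genes were called (244 higher, 25 lower) and 21 for the difference between arms, and with the block and the 6 libraries alone 4, all higher, and 0 lower.

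Some uncalled log2 fold changes turned sign when a library was left out: tcf21 ranged from -0.10 to 0.38, pdgfra from -0.25 to 0.33, top2a from -0.85 to 0.55 and ccnb1 from -1.16 to 0.041. A planned search of promoters for clock and AP-1 motifs was not run, since no sequence was used here.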

Other observations

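The following genes, chosen after their values were seen, add to the groups above. sfrp1a, a secreted antagonist of Wnt signalling, was at 12.8, 8.13 and 6.96 CPM in cKO sham ventricles and at 2.97, 2.69 and 1.40 CPM in cKO uninjured ventricles (log2 fold change 1.98, SE 0.35, adjusted p = 0.00897). dkk3b, of the Dickkopf family, was at 25.2, 17.0 and 16.5 CPM after sham and at 7.33, 6.88 and 6.58 CPM in uninjured ventricles (1.50, SE 0.22, adjusted p = 0.0015). frzb, another secreted Wnt antagonist, rose by 1.53 on the log2 scale (adjusted p = 0.0155), with the call lost without sham replicate 1 or uninjured replicate 2 (up to 0.0887). cthrc1a, a secreted collagen triple-helix repeat protein, was at 5.04, 1.47 and 2.66 CPM after sham and at 0.117, 0.141 and 0.102 CPM in uninjured ventricles (4.66, SE 0.81, adjusted p = 0.0088).

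Annexins bind membranes in a calcium-dependent way. anxa2a was at 447, 295 and 242 CPM in cKO sham ventricles and at 103, 59.0 and 40.0 CPM in uninjured ones (2.29, SE 0.36, adjusted p = 0.00369). anxa1a was at 279, 212 and 232 CPM after sham and at 57.5, 57.9 and 105 CPM in uninjured ventricles (1.71, SE 0.24, adjusted p = 0.00127). The actin-binding thymosin gene tmsb1 was at 19.0, 15.6 and 15.8 CPM after sham and at 6.03, 4.62 and 5.59 CPM in uninjured ventricles (1.63, adjusted p = 0.000533). cgna, the tight-junction protein cingulin, was at 5.12, 4.06 and 4.59 CPM after sham and at 1.50, 1.17 and 1.49 CPM in uninjured ventricles (1.72, adjusted p = 0.00168). The keratin krt18b rose by 1.34 on the log2 scale (adjusted p = 0.00411).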
